A study of Mus musculus with 8 samples.

Results

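Desmosomes are the intercellular junctions that hold keratinocytes together and anchor their keratin filaments. Their adhesive core is made of desmosomal cadherins, the desmogleins and the desmocollins, whose tails bind the armadillo proteins plakoglobin (Jup) and the plakophilins, and these in turn bind the plakin desmoplakin (Dsp), which holds the keratins. In stratified epidermis the cadherins are exchanged as cells leave the basal layer, with Dsg2, Dsg3, Dsc2 and Dsc3 known mainly from lower layers and Dsg1 and Dsc1 from upper layers. The 10 genes described here are Dsg1a, Dsg2, Dsg3, Dsc1, Dsc2, Dsc3, Dsp, Jup, Pkp1 and Pkp3. They were chosen by name as the epidermal components of this junction, with earlier results of these data known. All 10 were among the 23432 gene symbols of the count tables.

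Polyadenylated RNA of mouse skin epithelium was sequenced in 8 libraries, 2 in each of 4 groups. At E16.5, cells carrying the K14-H2BGFP reporter, a histone fused to green fluorescent protein and driven by the keratin 14 promoter, were sorted from back skin of controls and of MOFfl/fl/K14Cre embryos (MOF cKO). At P0.5, total epidermis was lifted from the dermis with dispase, without sorting, from controls and from Kansl1fl/fl/K14Cre pups (Kansl1 cKO). MOF is the histone acetyltransferase encoded by Kat8, and KANSL1 is a subunit of its NSL complex. K14Cre deletes in epithelium that expresses keratin 14, so other cells of the skin keep both genes, and the labels give controls no genotype beyond that word. The article's methods speak of 2 pairs of samples in each experiment and of controls from the same litter, but neither they nor the labels state whether each library came from 1 animal or which libraries form a pair, so p-values measure the spread between these libraries.

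The counts on genes ranged from 22484018 to 27561688 per library at E16.5 and from 9108709 to 19774643 at P0.5. The targeted genes were still counted in the knockouts, and counts of whole genes do not resolve deleted exons. Kat8 was at 14.4 and 14.7 CPM, counts scaled to a common library size, in E16.5 control and at 12.4 and 13.9 CPM in MOF cKO. Kansl1 was at 40.7 and 48.2 CPM in P0.5 control and at 31.4 and 30.6 CPM in Kansl1 cKO. The 6 keratinocyte markers (Krt5, Krt14, Krt15, Trp63, Epcam and Cdh1) summed to between 29648 and 36814 CPM at E16.5 and between 16708 and 18447 CPM at P0.5, so the labelled epithelium was present in every library. P0.5 control replicate 1 stood apart in skeletal muscle markers, which summed to 185 CPM against 1.66 to 3.56 CPM in the other P0.5 libraries, and results that rest on it are given with and without it.

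Dsp and Jup had the most similar profiles of any pair of the 10 genes, with a root mean square difference of 0.157 on the log2 scale over the 8 libraries after each gene was centred on its own mean. Their promoters are shown as the 250 bases before the RefSeq start. The choice did not rest on this likeness, since the cadherin genes were left out and no promoter entry was used for Pkp1 and Pkp3. Each is written 5′ to 3′ on the strand of the gene, with the GC box (GGGCGG, or its reverse complement CCGCCC) in capitals. The Jup window is chr11:100397791-100398040 of mm10 and the Dsp window is chr13:38151044-38151293.
Jup: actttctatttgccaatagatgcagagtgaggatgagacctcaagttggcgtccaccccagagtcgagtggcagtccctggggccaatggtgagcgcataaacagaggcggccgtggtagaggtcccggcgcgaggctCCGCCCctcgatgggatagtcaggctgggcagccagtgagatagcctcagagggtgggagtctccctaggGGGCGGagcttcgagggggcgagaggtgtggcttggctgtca
Dsp: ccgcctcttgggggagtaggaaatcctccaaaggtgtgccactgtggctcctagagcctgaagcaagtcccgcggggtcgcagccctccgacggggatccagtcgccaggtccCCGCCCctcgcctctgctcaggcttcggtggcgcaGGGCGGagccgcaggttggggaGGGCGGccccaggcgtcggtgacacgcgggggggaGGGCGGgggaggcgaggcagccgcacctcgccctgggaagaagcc

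Both windows were GC-rich, with a GC content of 62% and 13 CpG in Jup and 72.4% and 22 CpG in Dsp, against medians of 52.4% and 6 CpG over 32851 mouse promoters of the same length. The GC box was found 2 times in Jup and 4 times in Dsp on either strand, and 32.7% of all promoters held it. The letters CCAAT were found 2 times in Jup and 0 times in Dsp, on both strands, and 33.8% of promoters held them. TATAAA was found in neither window, and 12.4% of promoters held it. These matches describe the sequence alone.

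The 6 cadherin genes lie in 1 cluster on chromosome 18 of the mouse build mm10, between 19960930 and 20604521, with Dsg1b, Dsg1c and Dsg4 among them, the desmocollins on the minus strand and the desmogleins on the plus strand. Pkp1 lies on chromosome 1 from 135871395 to 135919207 (minus strand) and Pkp3 on chromosome 7 from 141078218 to 141090510 (plus strand). Jup lies on chromosome 11 from 100368958 to 100397763 (minus strand) and Dsp on chromosome 13 from 38151294 to 38198577 (plus strand). Exonic lengths ran from 3616 bases (Pkp3) to 9659 bases (Dsp). Dsg1a has close paralogs, Dsg1b and Dsg1c, that can share reads with it, so its level is uncertain to that extent. Dsg2 and Dsp each overlap a gene on the opposite strand, by 330 and 499 exonic bases. Neither of those overlapping genes was among the counted symbols.

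Levels of different genes were compared per length, as CPM per kilobase of exon (RPKM) on a scale common to the 8 libraries. In E16.5 control, Dsp was highest at 273 RPKM (mean, n = 2), followed by Pkp1 at 220 and by Jup and Pkp3 at 109 and 104, which did not separate in both libraries. Dsc3 at 73.6 RPKM was the most abundant cadherin, followed by Dsg1a at 21.3, Dsg3 at 15.8 and Dsg2 at 8.82. The ranges of Dsg1a and Dsg3 just overlapped, though Dsg1a was above Dsg3 within each library. Dsc1 and Dsc2 were the least abundant, at 1.35 and 1.33 RPKM, and could not be ordered. The 4 plaque genes thus lay above each cadherin at this stage. The 10 genes together held 0.705% and 0.632% of the counts in E16.5 control and 0.778% and 0.738% in MOF cKO. They held 1.06% and 0.868% in P0.5 control and 0.908% and 0.962% in Kansl1 cKO.

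**Figure D1:**
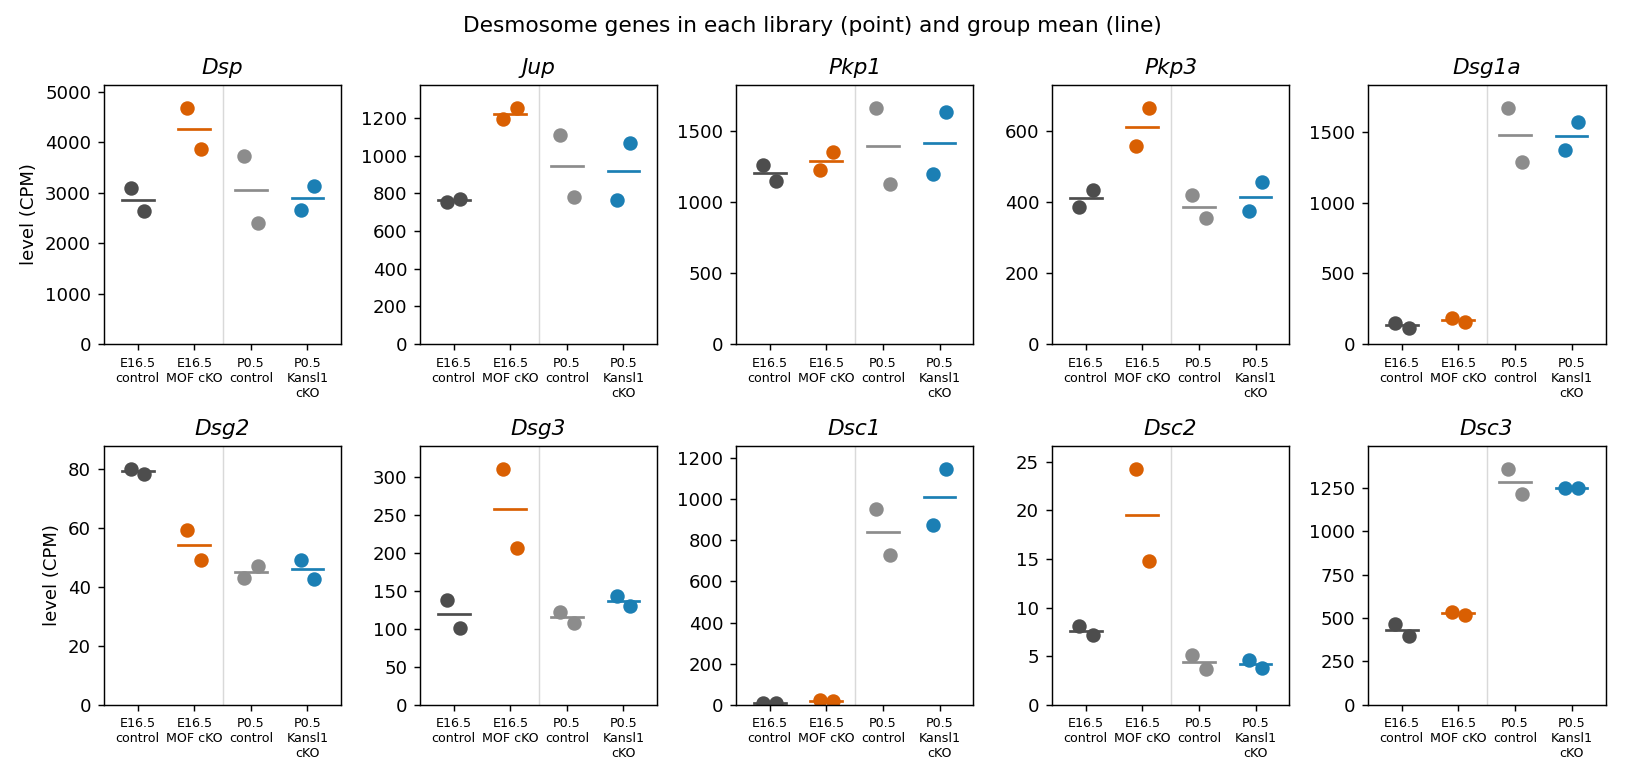
Level of each desmosome gene in CPM (vertical axes, each from 0, scaled within the experiment) in the 8 libraries, 1 point per library and a line at the mean of each group. Dsg3, Dsc2 and Jup were higher in both E16.5 MOF cKO libraries than in both controls. The E16.5 and P0.5 points are on separate scales. On the common scale, Dsg1a, Dsc1 and Dsc3 were 13.05-fold, 131.7-fold and 3.47-fold higher in P0.5 control than in E16.5 control. The P0.5 control and Kansl1 cKO points overlap for every gene but Dsg3.

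The first comparison asked how desmosome genes stood in E16.5 epithelium after deletion of the MOF gene. Of the 10 genes, 4 rose in MOF cKO and 0 fell under the thresholds of this comparison, an adjusted p not above 0.01 together with more than a 1.5-fold change (edgeR's quasi-likelihood test, Benjamini-Hochberg over 13956 genes). Of all genes tested, 19.6% passed in either direction, 1395 of them higher and 1338 lower, the latter 9.59%. The 4 were the desmocollins Dsc1 and Dsc2, the desmoglein Dsg3 and plakoglobin. The median log2 fold change of the 10 genes was 0.57, against -0.02 over all genes tested, with 9 genes higher and 1 lower, or 7 and 3 when libraries were scaled by their size alone, where the median of all genes was -0.32 and that of the 10 genes 0.27. An unadjusted p under 0.05 was reached by 8 of the 10, where 48.9% of all genes had one. Both MOF cKO libraries lay above both controls for 8 genes and below them for 1, where 34.9% and 37.7% of all genes did so. In bulk RNA, a change in the share of cells of one kind and a change in RNA per cell cannot be told apart.

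Among the desmogleins, Dsg3, the adhesion cadherin of basal and lower spinous cells, was at 137.8 and 101.3 CPM in control and at 310.3 and 206.7 CPM in MOF cKO. Both knockout libraries were above both controls, and Dsg3 rose by 1.11 on the log2 scale (standard error, SE, 0.217, edgeR adjusted p = 0.00700), a 2.16-fold change. MOF cKO replicate 1 carried much of this, and without it the log2 fold change was 0.79 and the adjusted p = 0.0122 (edgeR). Dsg2, the most widely expressed desmoglein of simple epithelia, was at 79.8 and 78.4 CPM in control and at 59.1 and 48.9 CPM in MOF cKO. It was the one gene of the 10 that lay lower, with groups that did not overlap, and its log2 fold change of -0.55 (SE 0.131, edgeR adjusted p = 0.0144) missed both thresholds. Dsg2 passed them without MOF cKO replicate 1 (-0.70). Its value was -0.54 with control replicate 1 dropped, -0.56 with control replicate 2 dropped and -0.42 with MOF cKO replicate 2 dropped. Dsg1a, the desmoglein of upper layers, was at 151.7 and 111.2 CPM in control and at 181.4 and 158.3 CPM in MOF cKO. Its groups were separate but close, with a log2 fold change of 0.37 (95% interval -0.01 to 0.75, edgeR adjusted p = 0.108).

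Dsc1 and Dsc2 had the largest changes of the 10 genes and, at E16.5, the lowest levels. For Dsc1, the desmocollin of differentiated layers, 247 and 187 reads were counted in the controls, against 452 and 412 in the knockout. These are 8.06 and 6.75 CPM against 22.7 and 17.4 CPM, and Dsc1 rose by 1.44 on the log2 scale (SE 0.217, edgeR adjusted p = 0.00254), 2.71-fold. Dsc2, the broadly expressed desmocollin, was at 8.12 and 7.15 CPM in control and at 24.2 and 14.8 CPM in MOF cKO. The knockout libraries differed more from each other than the controls did, and Dsc2 rose by 1.35 (SE 0.267, edgeR adjusted p = 0.00725), 2.55-fold. Without MOF cKO replicate 1 it stood at 0.95 with an adjusted p = 0.0196 (edgeR). Dsc3, the main desmocollin of the basal layer, was at 468 and 395 CPM in control and at 535 and 519 CPM in MOF cKO. It did not pass the test (log2 fold change 0.29, 95% interval 0.02 to 0.56, edgeR adjusted p = 0.0868), and with libraries scaled by size alone the value was -0.02.

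Of the armadillo proteins, Jup, which links the cadherin tails to desmoplakin and also serves adherens junctions, had the smallest standard error of the 10 genes. It stood at 756 and 768 CPM in control and at 1194 and 1250.0 CPM in MOF cKO. Jup rose by 0.68 on the log2 scale (SE 0.0959, edgeR adjusted p = 0.00197), 1.60-fold, and this value ran from 0.65 to 0.71 with any 1 library left out. The call was lost with libraries scaled by size alone (0.38, edgeR adjusted p = 0.0166) and in 1 fit over all libraries (0.68, edgeR adjusted p = 0.0245). Pkp3, the plakophilin found in all living layers, was at 385 and 434 CPM in control and at 558 and 662 CPM in MOF cKO. The groups did not overlap, and its log2 fold change of 0.57 (SE 0.124, edgeR adjusted p = 0.0102) fell just short of both thresholds. It passed them without control replicate 2 (0.67) and without MOF cKO replicate 1 (0.69). Dropping control replicate 1 lowered the value to 0.49, and dropping MOF cKO replicate 2 lowered it to 0.44. Pkp1, the plakophilin most abundant in upper layers, was at 1260 and 1142 CPM in control and at 1225 and 1352 CPM in MOF cKO. It was the only gene of the 10 whose groups overlapped, and its 95% interval on the log2 scale ran from -0.15 to 0.35.

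Dsp, the plakin required in every desmosome, was at 3084 and 2646 CPM in control and at 4671 and 3858 CPM in MOF cKO. Both knockout libraries lay above both controls, by 0.57 on the log2 scale (SE 0.131, edgeR adjusted p = 0.0124), a 1.49-fold difference just short of both thresholds. Dsp passed them without control replicate 1 (0.69) and without MOF cKO replicate 2 (0.70). Its value fell to 0.47 when control replicate 2 was dropped and to 0.43 when MOF cKO replicate 1 was. DESeq2, with 13.0% of all genes called higher at the same thresholds, called 6 of the 10 genes higher, adding Dsp and Pkp3. Tested against the fold threshold itself with edgeR's glmTreat, 0 of the 10 were called, where 502 of 13956 genes were called higher and 426 lower. The 4 genes called above had adjusted p between 0.0136 (Dsc1) and 0.227 (Jup) by glmTreat.

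**Figure D2:**
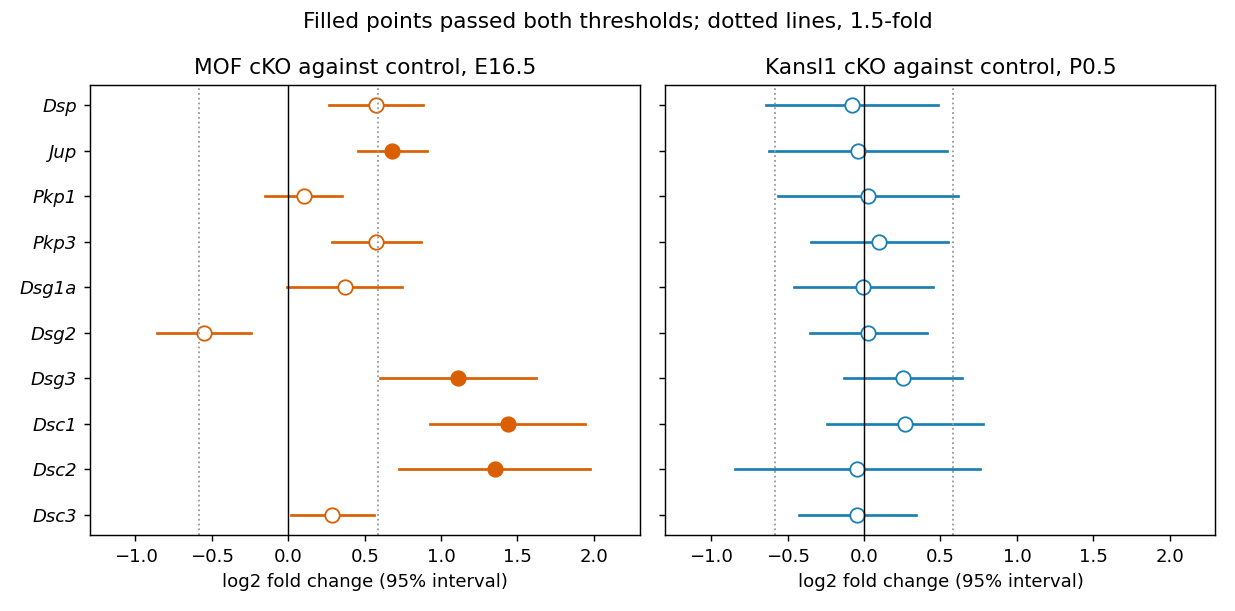
Log2 fold change of each desmosome gene (points, horizontal axis) with its 95% interval (bars) in MOF cKO against E16.5 control (left) and in Kansl1 cKO against P0.5 control (right), with 2 libraries a group. Filled points passed both thresholds and dotted lines mark 1.5-fold. Jup, Dsg3, Dsc1 and Dsc2 are filled on the left, none on the right, and scaling by library size alone puts Dsc3 and Pkp1 below 0 on the left.

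The make-up of the cadherin families differed between control and MOF cKO libraries. Among the desmogleins per length, Dsg3 held 33.1% and 31.4% in the controls, and 50.0% and 42.7% in the knockout libraries. Dsg2 went the other way, from 16.2% and 20.5% to 8.04% and 8.53%. The Dsg2 to Dsg3 ratio was 0.489 and 0.653 in the controls against 0.161 and 0.200 in the knockout, and the Dsg1a to Dsg3 ratio was 1.35 and 1.35 against 0.717 and 0.940. These ratios are taken within a library and do not depend on scaling between libraries. Dsc3 remained the bulk of the desmocollins, at 96.5% in each control and 91.6% and 93.9% in MOF cKO. Relative to Dsp, Pkp1 was at 0.786 and 0.830 per length in control and at 0.504 and 0.674 in MOF cKO, while Jup to Dsp overlapped between groups (0.368 and 0.436 against 0.384 and 0.486). These shares and ratios are given as a description and were not tested.

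**Figure D3:**
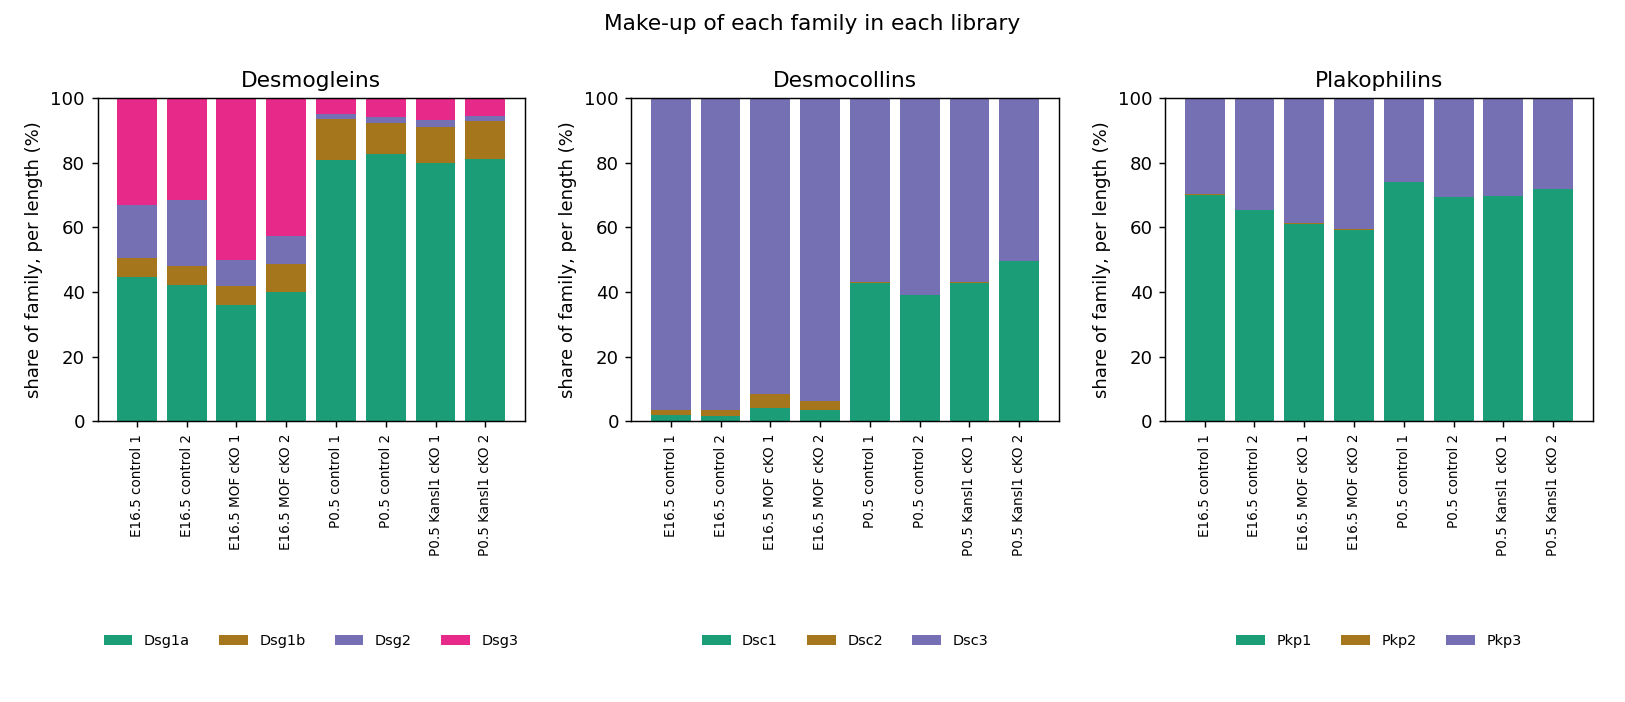
Share of each family's RPKM (vertical axis, percent) held by each gene, 1 bar per library, for desmogleins, desmocollins and plakophilins. Dsg3 takes a larger and Dsg2 a smaller share in both MOF cKO libraries than in both E16.5 controls, and Dsg1a and Dsc1 take much larger shares in the P0.5 libraries than at E16.5.

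Other genes of the junction were read from a list of 9 desmosome-associated genes, of which 7 could be tested at E16.5. Of these, 2 rose in MOF cKO and 0 fell, with a median of 0.70. Over all 13956 genes tested, 1395 rose and 1338 fell, with a median of -0.02. Pkp2, the plakophilin of simple epithelia and heart, was counted 28 and 31 times in the controls and 130 and 149 times in the knockout, and rose 6.30-fold from a low level (log2 fold change 2.65, SE 0.391, edgeR adjusted p = 0.00232). It still made up no more than 0.305% of the 3 plakophilins in any library. Perp, a tetraspan membrane protein of desmosomes and a p53 target, was at 1037 and 991 CPM in control and at 1711 and 1584 CPM in MOF cKO, and rose by 0.70 (edgeR adjusted p = 0.00203). Dsg1b missed the threshold on p, with a log2 fold change of 0.88 (edgeR adjusted p = 0.0109), and the plakins Evpl and Ppl had values of 0.52 and -0.11. Corneodesmosin (Cdsn), of the cornified layer, was between 0.542 and 2.71 CPM at E16.5. Dsg1c and Dsg4 had at most 10 counts in any E16.5 library and were not tested.

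The neighbouring adhesion systems and the keratins that desmosomes anchor were read for comparison. Over all 13956 genes tested, 1395 rose and 1338 fell, with a median log2 fold change of -0.02. Of 10 adherens junction genes, 3 rose and 0 fell in MOF cKO, with a median of 0.46. Those were the nectins Pvrl4 (log2 fold change 1.63) and Pvrl1 (0.99) and vinculin (Vcl, 0.65), while E-cadherin (Cdh1) and beta-catenin (Ctnnb1) had values of 0.45 and -0.38 that did not pass. Of 6 hemidesmosome genes, which fix basal cells to the basement membrane, 2 rose, plectin (Plec, 0.92) and Cd151 (0.77), and 0 fell. Among basal keratins, Krt15 fell by 1.26 on the log2 scale and Krt5 and Krt14 had values of -0.04 and 0.20. Among suprabasal keratins, Krt1 rose by 1.67 and Krt10 by 1.12, and Krt77 had a value of 0.11. Whether the desmosome genes changed more than these lists was not tested.

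**Figure D4:**
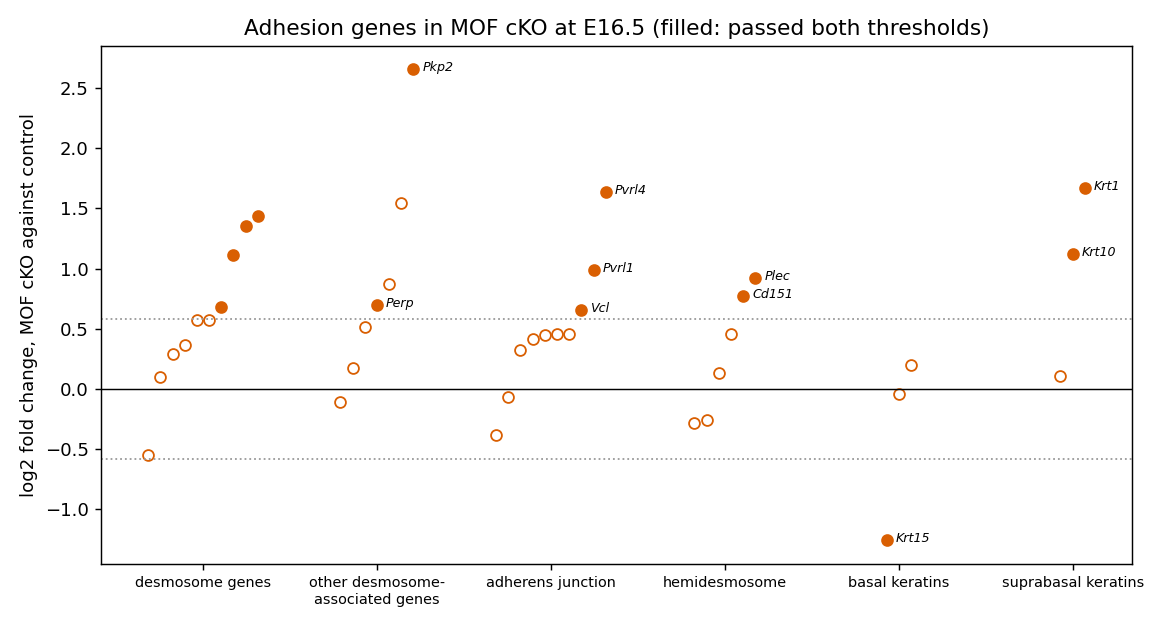
Log2 fold change in MOF cKO against E16.5 control (vertical axis) of every tested gene of the desmosome group and of the 5 other lists, 1 point per gene sorted within its list. Filled points passed both thresholds, the dotted lines mark 1.5-fold, and called genes outside the desmosome group are named. In every list but the basal keratins the called genes are all above 0.

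Markers of differentiation and of other cells differed between the same libraries. Of all 13956 genes tested, 1395 were called higher and 1338 lower. All 4 spinous layer markers, the keratins Krt1 and Krt10 among them, rose in MOF cKO, and their sum was between 3298 and 4068 CPM in control and between 9038 and 9950 CPM in the knockout. Of 4 granular markers 1 rose, Ivl, from 11 and 20 counts to 216 and 232, and their sum went from between 10.2 and 11.0 CPM to between 23.4 and 24.4 CPM. Of 9 macrophage markers 6 rose, with sums of 19.3 to 44.8 CPM in control and 96.6 to 126.3 CPM in MOF cKO, and 0 of them were at 0 counts in a control library. Most of the control sum was Cd68, which was not called, at 18.1 and 41.7 CPM in control and 22.9 and 51.9 CPM in MOF cKO. Among those called, Csf1r, the receptor that macrophages depend on, was counted 6 and 25 times in control and 205 and 275 times in MOF cKO, 20.1-fold higher, and the lysozyme gene Lyz2 3 and 8 times against 423 and 538 times. Fibroblast markers summed to between 917 and 1552 CPM in control and between 1541 and 2150 CPM in MOF cKO, and 0 of 7 were called, though all 7 had an unadjusted p under 0.05 (edgeR) and 6 were higher. All 5 endothelial markers were higher and 1 was called, Pecam1 (3.34-fold, edgeR adjusted p = 0.00892), with sums of 6.49 to 7.51 CPM in control and 13.8 to 24.6 CPM in MOF cKO. The part of these cells in the desmosome changes was not tested.

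The second comparison asked the same of Kansl1 in P0.5 epidermis. None of the 10 genes was called in Kansl1 cKO, and 0 of the 10 had an unadjusted p under 0.05 (edgeR's quasi-likelihood test), where 0.00% of 13031 genes were called and 15.7% had such a p. DESeq2 called 0 of the 10 as well, and 0.744% of all genes. Log2 fold changes ran from -0.08 (Dsp) to 0.27 (Dsc1), with a median of 0.01 for the 10 genes and 0.01 for all genes tested. Dsg3 was the only gene whose groups were separate, at 122.5 and 107.8 CPM in control and 143.8 and 130.6 CPM in Kansl1 cKO, where 26.0% of all genes had both knockout libraries higher. Its log2 fold change was 0.25 (95% interval -0.13 to 0.64, edgeR adjusted p = 0.498), the smallest adjusted p of the 10. All 6 melanocyte markers were higher in Kansl1 cKO with an unadjusted p under 0.05, 0 of them called (edgeR), with sums of 461 to 508 CPM in control and 981 to 1107 CPM in Kansl1 cKO. Of 9 macrophage markers 8 were higher, 4 of the 9 had such a p and 0 were called, with sums of 169 to 195 CPM against 256 to 278 CPM. Of 7 fibroblast markers 6 were lower, 5 of the 7 had such a p and 0 were called, with sums of 1092 to 1748 CPM against 739 to 926 CPM. The part of these cells in the desmosome values was not tested.

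These values do not show that the genes were alike in the 2 genotypes, and the width of the intervals says what they allow. For Dsg2 and Dsc3 the 95% interval stayed within 1.5-fold either way, at -0.36 to 0.41 and -0.43 to 0.34, as did those of Dsg1a (-0.46 to 0.45) and Pkp3 (-0.35 to 0.55). For Dsp, Jup and Pkp1 it reached past 1.5-fold on at least 1 side, at -0.64 to 0.48, -0.62 to 0.54 and -0.57 to 0.61. Dsg3 and Dsc1 reached past it on the higher side, to 0.64 and 0.78. Dsc2, with 45 to 96 counts per library, had the widest interval, from -0.85 to 0.76.

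For Dsp and Jup, the P0.5 libraries of a genotype differed by more than the group means did. Dsp was at 3720 and 2399 CPM in the controls and at 2665 and 3128 CPM in Kansl1 cKO. Jup was at 1107 and 778 CPM in the controls and at 765 and 1069 CPM in Kansl1 cKO. Control replicate 1 and Kansl1 cKO replicate 2 were above their partners for 6 of the 10 genes, Dsp, Jup, Pkp1, Pkp3, Dsg1a and Dsc1, by 1.15-fold to 1.55-fold. In the same libraries Krt1 was 1.96-fold and 1.51-fold above the partner, the cornified envelope protein loricrin (Lor) 1.64-fold and 6.17-fold and Cdsn 2.16-fold and 4.60-fold. Dsg2 was lower than the partner in both. Without control replicate 1, the library with muscle markers, the median of the 10 genes was 0.23 and 9 were higher in Kansl1 cKO, and without control replicate 2 it was -0.18 and 3 were higher. Leaving out 1 library turned the sign for 8 of the 10 genes. Dsg3 and Dsc1 stayed above 0 but moved, Dsg3 to 0.35 without control replicate 1 and 0.13 without control replicate 2, and Dsc1 to 0.47 and 0.0578. In these fits 0 of the 10 genes were called.

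The 2 effects were then compared in 1 fit over the 8 libraries. Deleted gene, stage, isolation and sequencing instrument change together between the 2 effects and cannot be told apart in this comparison. The article's reporting summary names a different Illumina instrument for each experiment. The difference between the MOF effect and the Kansl1 effect passed for 0 of the 10 genes (edgeR's quasi-likelihood test, both thresholds), where 2.92% of 14565 genes passed, and 5 of the 10 had an unadjusted p under 0.05, where 31.2% of genes had one. The median difference of the 10 genes was 0.53, against -0.065 over all genes. Without P0.5 control replicate 1, the library with muscle markers, these medians were 0.30 and -0.066. The smallest adjusted p was that of Dsc1, 0.0316 (edgeR), with a difference of 1.14 on the log2 scale (SE 0.284). The calls in MOF cKO and their absence in Kansl1 cKO are therefore not shown to differ for any of the 10 genes at these thresholds. Dsc1 alone passed with the threshold on p at 0.05, where 13.8% of genes did, or by DESeq2, where 10.3% did. When every gene with at least 1 count was kept, Dsc1 and Dsg3 passed, where 1112 of 18447 genes passed as higher and 539 as lower.

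The control libraries of the 2 experiments gave levels at E16.5 and P0.5. Between them, stage, isolation and sequencing instrument change together and cannot be told apart. In the fit over all libraries, 3 of the 10 genes were higher in P0.5 control and 1 was lower, where 19.6% of 14565 genes were higher and 20.6% lower. All 4 were cadherins. Dsc1 was at 1.47 and 1.24 RPKM in E16.5 control and at 201.3 and 155.5 RPKM in P0.5 control, a 131.7-fold difference (log2 fold change 7.04, SE 0.255, edgeR adjusted p = 2.43e-07). Dsg1a was at 24.5 and 18.1 RPKM and at 312.7 and 243.2 RPKM, 13.1-fold higher (log2 fold change 3.71, edgeR adjusted p = 1.94e-06). Dsc3 was at 79.6 and 67.6 RPKM and at 268.6 and 242.1 RPKM, 3.47-fold higher (log2 fold change 1.79, edgeR adjusted p = 9.75e-06). The upper-layer cadherins thus had the largest differences, and the sum of the 4 granular layer markers went from between 10.2 and 11.0 CPM in E16.5 control to between 8769 and 13570 CPM in P0.5 control. Markers of other cells were also higher in P0.5 control, 8 of 9 for macrophages, 6 of 6 for melanocytes and 3 of the 4 tested for skeletal muscle. Their sums, scaled within each experiment, went from between 19.3 and 44.8 CPM to between 168.7 and 194.5 CPM for macrophages and from between 19.1 and 46.3 CPM to between 461 and 508 CPM for melanocytes. The muscle sum was at 1.11 and 1.34 CPM in E16.5 control and at 185 and 3.56 CPM in P0.5 control. The part of these cells in the stage differences was not tested.

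Dsg2 was lower at P0.5, at 5.55 and 6.13 RPKM against 8.87 and 8.77 RPKM (log2 fold change -0.59, edgeR adjusted p = 0.00794), a call that rested on each of 5 libraries and was lost without either E16.5 control, without either P0.5 control and without MOF cKO replicate 2. DESeq2 did not make it either, nor did edgeR with DESeq2's size factors, with every gene of at least 1 count or with the replicate number as a block. Without P0.5 control replicate 1, Dsc1, Dsg1a and Dsc3 were still called. The other 6 genes did not pass, with log2 fold changes from -0.59 (Dsc2) to 0.52 (Jup). DESeq2 called Jup higher, where it called 3525 of 14565 genes higher. With every gene of at least 1 count kept, edgeR also called Jup higher, where 3455 of 18447 genes were. Dsp was at 293.3 and 253.4 RPKM in E16.5 control and at 411.2 and 267.2 RPKM in P0.5 control. In P0.5 control the order of levels was Dsp, Pkp1, Dsg1a and Dsc3, at means of 339, 296, 278 and 255 RPKM. Their ranges over the libraries overlapped from each to the next. Then came Dsc1 at 178 and Jup at 157, whose ranges also overlapped. Within each library, Dsp was above Pkp1 and Dsc1 above Jup. Pkp3 at 114, Dsg3 at 17.7, Dsg2 at 5.84 and Dsc2 at 0.897 RPKM followed in that order in both libraries. The cadherins Dsg1a, Dsc3 and Dsc1, which lay below Pkp3 at E16.5, thus lay above it at P0.5.

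Per length, Dsg1a held between 80.0% and 82.9% of the desmogleins in the 4 P0.5 libraries, against between 35.9% and 44.8% in those of E16.5. Dsc1 held between 39.0% and 49.5% of the desmocollins at P0.5 and at most 4.16% at E16.5. The Dsc1 to Dsc3 ratio was 0.750 and 0.642 in P0.5 control, 0.751 and 0.984 in Kansl1 cKO, 0.0184 and 0.0183 in E16.5 control and 0.0454 and 0.0360 in MOF cKO. Dsc1 thus rose in MOF cKO while its level stayed far under that of either P0.5 group.

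Of the 10 genes, Dsp, Jup, Pkp1 and Pkp3 were each nearest to Jup or Dsp in their profile over the 8 libraries, at root mean square differences of 0.157 to 0.240 on the log2 scale. The cadherins were farther from any other gene of the 10, from 0.297 (Dsg3, nearest to Dsp) to 1.51 (Dsc1, nearest to Dsg1a). Among 12529 genes tested in both experiments, the 5 outside the lists whose profile was most like that of Dsp were Vps36, an ESCRT subunit (0.094), Reep6, an endoplasmic reticulum protein (0.095), Capzb, an actin capping subunit (0.098), Slmap, a tail-anchored membrane protein (0.101), and Lamtor1, a Ragulator subunit (0.103). All 5 were closer to Dsp than Jup was. This likeness is a description over 8 libraries that share their scaling.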

How the data were processed

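Poly(A)-selected RNA of 8 mouse skin libraries was prepared with a directional kit. The authors aligned the reads to mm10, counted them per gene with HTSeq and deposited the counts without normalization. The aligner is TopHat2 in the submitters' processing notes and HISAT2 in the article's methods, and the strand setting of the counting is not given in the sources used here. Entries that name no gene held 21.1% to 26.0% of the reads and were left out.

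Tests used edgeR 4.0.16 in R 4.3.3 (filterByExpr, TMM, quasi-likelihood test, Benjamini-Hochberg over all genes tested), each knockout with its own controls, and levels across stages and the difference of effects in 1 fit over the 8 libraries. Calls needed an adjusted p not above 0.01 together with more than a 1.5-fold change, the article's thresholds. DESeq2 1.42.0, the article's tool, other scalings, filters and tests, the replicate block and leaving out each library were alternatives. CPM are counts scaled by TMM library size, and RPKM divide them by the exonic length in the GENCODE annotation of mm10, to which 92.8% of symbols were matched. Promoter sequences are from RefSeq (mm10). Scripts were tested on simulated data.

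Genes named are the 10 desmosome genes, called or example genes of the lists, the targeted genes and the 5 genes most like Dsp. The members and lists were chosen with earlier results of these data known. The precision is limited by 2 libraries a group and, for Dsc1 and Dsc2 at E16.5 and Dsc2 at P0.5, by at most 483 counts.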

Additional observations from a re-analysis of the deposited data

How the results depend on the processing

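Of the 10 desmosome genes, 4 were called in MOF cKO, and the count was 2 with libraries scaled by size alone (Dsc1 higher, Dsg2 lower) and 0 when tested against the fold threshold with glmTreat, where the count over the other lists went from 10 to 5. It was 5 with DESeq2's size factors, 3 in one fit over all libraries and 4 to 5 with any 1 library left out, where without MOF cKO replicate 1 the calls were Dsc1, Jup and Pkp3 higher and Dsg2 lower. With upper-quartile factors the same 4 genes were higher and Dsg2 was lower. Scaling by size alone turned Dsc3 (-0.0176) and Pkp1 (-0.20) below 0 in MOF cKO. All genes called in MOF cKO were 1395 up and 1338 down, 769 and 2743 with scaling by size alone, and 502 and 426 with glmTreat. They were 1473 and 1269 with DESeq2's size factors, 1213 and 1551 with upper-quartile factors, and 1337 and 1321 in one fit. The difference between the MOF and Kansl1 effects was called for 0 genes of the 10, and for 2 when every gene with at least 1 count was kept, 1 with DESeq2, 1 with a likelihood ratio test and 1 at an adjusted p of 0.05. Over all genes it was called for 256 up and 170 down, and in those 4 settings, in that order, for 1112 and 539, 976 and 518, 909 and 801, and 1026 and 985. In Kansl1 cKO 0 of the 10 were called under every alternative run, though several signs turned. Dsg2 was -0.0236 with size alone, -0.0239 with upper-quartile factors and -0.0118 with a filter of 1 CPM, and Pkp1 was -0.0250, -0.0297 and -0.0133. Dsg1a was 0.0098 with every gene of at least 1 count and 0.0282 in one fit. With 1 library left out, where the lone library of a group is taken to vary like the others, Kansl1 cKO values ran from -0.21 to 0.20 for Dsg1a, -0.11 to 0.12 for Dsg2, -0.31 to 0.20 for Dsc2, -0.15 to 0.04 for Dsc3, -0.39 to 0.27 for Dsp, -0.30 to 0.24 for Jup, -0.26 to 0.33 for Pkp1, -0.0472 to 0.23 for Pkp3, 0.13 to 0.35 for Dsg3 and 0.0578 to 0.47 for Dsc1. Among all genes, Kansl1 calls were 0 by edgeR's quasi-likelihood test, and 71 higher and 114 lower by its likelihood ratio test. They were 190 by the quasi-likelihood test with every gene of at least 1 count and 97 with DESeq2. The cause of these differences was not tested, beyond the shift of the median of all genes under scaling by size. The article's methods speak of pairs with controls from the same litter, but no source used here says that equal replicate numbers mark a pair, and deviations of equal numbers correlated at 0.206 in the MOF and -0.202 in the Kansl1 experiment, with 2 pairs each. With the replicate number as a block, 4 of the 10 genes were called in MOF cKO, 0 in Kansl1 cKO and 3 between stages, and Dsg1a in Kansl1 cKO was 0.0044. With the numbers crossed, chosen after seeing the data, the Kansl1 count was also 0 and Dsg1a 0.0044.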

Other observations

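In P0.5 control against E16.5 control, 4 of 8 tested desmosome-associated genes were higher and 1 was lower at both thresholds of edgeR's quasi-likelihood test, where 19.6% of 14565 genes were higher and 20.6% lower. Perp, Dsg1b and Ppl were 6.54-fold, 13.4-fold and 2.02-fold higher. Cdsn went from 28 and 15 counts to 10957 and 9005. For Pkp4, an armadillo protein of many cell contacts, the difference was -1.43 on the log2 scale (edgeR adjusted p = 5.82e-05). Of 6 hemidesmosome genes, Itgb4 and Cd151 were lower at P0.5 (log2 fold change of Cd151 -0.90) and 0 were higher. In Kansl1 cKO, Pkp4 was the one tested gene of the desmosome-associated list with an unadjusted p under 0.05 (0.55, edgeR adjusted p = 0.243). Stage, isolation and sequencing instrument cannot be told apart in the first of these comparisons.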
